A study of Mus musculus with 4 samples.

Results

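The genes described here are 10 secreted-protein genes that took a large share of the reads of 1 library, WT replicate 1, out of 38087 genes measured. They are Spt1, Scgb1b27, Scgb2b27, Scgb2b26, Car6, Prol1, Pip, Smgc, MUCL1 and Crisp3, matched by gene symbol, and each matched 1 gene. They were chosen by their share of the reads in WT replicate 1, so their levels in that library, and any comparison that includes it, are given as a description. The study set 2 libraries of wild type (WT) cervical lymph node beside 2 libraries of cervical tissue with a myeloid-specific loss of Becn1, an autophagy gene (Becn1-M-KO, called KO here). The mice were C57BL/6, at week 20. The KO tissue is called lymphoma in the series title, so the genotype cannot be told apart from the tumour. The promoter driving the myeloid deletion is not given in the sources used here, and the labels do not say whether the libraries of a group came from separate animals. Any p-value therefore measures only the spread between these libraries, which may be technical.

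Salivary and tear glands are exocrine organs whose acinar and duct cells make a small set of secreted proteins in very large amounts. In the mouse neck, the submandibular, sublingual and parotid salivary glands lie next to the cervical lymph nodes. Each gland makes its own mixture. The submandibular gland is known for glandular kallikreins and salivary mucin 10, and the parotid gland for amylase and parotid secretory protein (Bpifa2). The sublingual gland is known for the mucin Muc19 and for demilune cell and parotid proteins (Dcpp), whose name also refers to the parotid gland. Secretoglobins of the Scgb1b and Scgb2b subfamilies are the subunits of salivary androgen-binding protein, which pairs an alpha chain such as Scgb1b27 with a beta-gamma chain such as Scgb2b27 or Scgb2b26. The other genes encode carbonic anhydrase 6, the secreted form of the enzyme (Car6), salivary mucin 10 (Prol1), prolactin-induced protein (Pip), submandibular gland protein C (Smgc), a cysteine-rich secretory protein (Crisp3) and the related mucin-like proteins Spt1 and MUCL1. In bulk tissue, fewer cells of a type and less RNA per cell cannot be told apart.

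The windows around the start sites of 4 of these genes are shown because they lead the list and include a pair of closely related copies. They come from RefSeq, build GRCm38.p6, and run from 250 bases before to 50 bases after the annotated start, on the strand of the gene. Spt1 (listed by RefSeq as Mucl2) is at chr15:103899263-103899562 on the minus strand and Scgb1b27 at chr7:34021231-34021530 on the plus strand. Scgb2b26 is at chr7:33944936-33945235 and Scgb2b27 at chr7:34013893-34014192, both on the minus strand. Capitals mark TATAAA on either strand, the core of a TATA box.
Spt1: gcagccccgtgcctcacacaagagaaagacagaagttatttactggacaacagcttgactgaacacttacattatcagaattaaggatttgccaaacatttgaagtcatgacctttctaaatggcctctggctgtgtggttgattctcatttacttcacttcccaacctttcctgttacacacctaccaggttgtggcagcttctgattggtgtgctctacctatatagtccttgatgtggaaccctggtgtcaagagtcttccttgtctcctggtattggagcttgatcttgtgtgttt
Scgb1b27: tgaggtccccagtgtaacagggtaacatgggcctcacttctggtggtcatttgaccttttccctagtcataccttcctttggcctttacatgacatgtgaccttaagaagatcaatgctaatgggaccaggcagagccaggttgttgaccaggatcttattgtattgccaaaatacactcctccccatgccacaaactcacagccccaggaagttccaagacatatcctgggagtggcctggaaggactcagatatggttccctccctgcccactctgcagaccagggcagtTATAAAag
Scgb2b26: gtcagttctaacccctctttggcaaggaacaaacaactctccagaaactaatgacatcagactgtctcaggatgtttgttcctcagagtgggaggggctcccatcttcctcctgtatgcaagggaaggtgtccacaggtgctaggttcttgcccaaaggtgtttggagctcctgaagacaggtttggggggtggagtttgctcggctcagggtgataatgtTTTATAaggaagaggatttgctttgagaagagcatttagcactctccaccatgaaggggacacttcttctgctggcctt
Scgb2b27: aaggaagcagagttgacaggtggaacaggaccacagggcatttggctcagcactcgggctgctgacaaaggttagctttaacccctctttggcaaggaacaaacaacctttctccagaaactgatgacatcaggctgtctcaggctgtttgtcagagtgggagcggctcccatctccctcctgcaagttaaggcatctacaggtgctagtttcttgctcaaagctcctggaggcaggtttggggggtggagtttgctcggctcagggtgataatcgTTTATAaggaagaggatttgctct
The Scgb2b26 and Scgb2b27 windows were identical at 207 of 227 aligned bases (91.2%). Their TATAAA match begins 29 bases before the annotated start of Scgb2b26 but 26 bases after that of Scgb2b27, since the stretch they share lies further downstream in the Scgb2b27 window. A window was matched for 9 of the 10 genes, and TATAAA was present in 6 of them (Scgb1b27, Scgb2b26, Scgb2b27, Pip, Smgc and Crisp3), against 14.2% of 27025 mouse promoters with windows of the same length. Of the other motifs searched on both strands, CATATG was in 0 of 9 windows (3.91% of all) and TGTTCT, the core of a steroid receptor element, in 1, that of Pip (19.0% of all). The TATAAA match of Scgb1b27 begins 42 bases after the start, and those of Scgb2b26 and Scgb2b27 lie on the opposite strand. Pip, Smgc and Crisp3 had a match on the strand of the gene, 28, 30 and 31 bases before the start. A match is a description of letters, not a site.

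The genes lie on 6 chromosomes in mm10 coordinates. Spt1 (chromosome 15, 103895859 to 103899312, minus strand) and MUCL1 (chromosome 15, 103752063 to 103755439, minus strand) are neighbours and copies of each other, with 75.0% identity over 704 aligned bases of their longest transcripts. Scgb2b26 (33943002 to 33945040), Scgb2b27 (34011932 to 34013942) and Scgb1b27 (34021483 to 34022881) sit together on chromosome 7. The others are Car6 on chromosome 4 (150187015 to 150201332), Prol1 on chromosome 5 (88317312 to 88328817) and Pip on chromosome 6 (41847549 to 41852062). Smgc lies on chromosome 15 (91838265 to 91861438) and Crisp3 on chromosome 17 (40221777 to 40242288). Sharing of 50-base stretches with transcripts of other genes was low, from 0% for Scgb1b27, Car6, Prol1 and Pip to 2.41% for Crisp3 (with Crisp1); how the authors treated reads that fit several genes is not given in the sources used here.

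WT replicate 1 stood apart from the other libraries before any comparison. Its T cell markers summed to 5.76 CPM, that is, reads scaled to each library's total. The same sum was 777 CPM for WT replicate 2 and 656 and 630 CPM for the KO libraries. The B cell marker Ms4a1 had 3 reads there, against 2378 in WT replicate 2, and the T cell marker Cd3e had 1 against 668, so these markers of a lymph node were nearly absent from this library. The epithelial list (Krt18, Epcam, Cdh1 and 6 others) reached a sum of 1069 CPM in WT replicate 1 and 933 CPM in WT replicate 2, beside 13.9 and 19.9 CPM in KO. Reads on Xist, the RNA that silences an X chromosome in female cells, numbered 2088 and 5314 in the WT libraries, but 3 and 34 in those of KO. Many salivary gland genes are known to differ between the sexes. Xist split the libraries in the same way as genotype. Sex therefore cannot be told apart from genotype or tumour in any comparison of KO with WT, and its part was not tested. Becn1 itself measured 28.1 and 74.4 CPM in the WT libraries, and 63.1 and 69.0 CPM in those of KO; a myeloid deletion cannot be checked from whole tissue. Library totals ranged from 15604247 to 20067004 reads.

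The 10 genes together took 52.8% of the reads of WT replicate 1 (95% exact binomial interval 52.8 to 52.9%). They took 1.31% in WT replicate 2 (1.30 to 1.31%), 0.0134% in KO replicate 1 (0.0128 to 0.0140%) and 0.483% in KO replicate 2 (0.480 to 0.486%). Intervals here cover counting error only, since reads without molecular identifiers are not independent molecules. The libraries thus fell into a wide order in which the 2 WT libraries differed 40.4-fold and the 2 KO libraries 36.1-fold (KO replicate 2 over KO replicate 1). WT replicate 2 exceeded KO replicate 2 by 2.71-fold, far less than either group's own spread. With these genes set aside, 7613800 reads were left there for all other genes, against 17640747 in WT replicate 2. Becn1 shows what that does to a level: in WT replicate 1 it was 28.1 CPM of all reads but 59.6 CPM of the reads outside the 10 genes, beside 75.4 in WT replicate 2 and 63.1 and 69.3 in KO.

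Spt1, a salivary mucin-like protein gene, had 5168161 reads in WT replicate 1, which was 32.0% of that library. Its share was 0.545% in WT replicate 2, 0.00873% in KO replicate 1 and 0.337% in KO replicate 2. Its rank among all genes by reads was 1 in WT replicate 1, 7 in WT replicate 2, 2488 in KO replicate 1 and 12 in KO replicate 2. Its smaller relative MUCL1 took 0.358% of WT replicate 1, 0.00900% of WT replicate 2, 0.000141% of KO replicate 1 and 0.00525% of KO replicate 2. Both copies kept the same order of libraries, with WT replicate 1 highest and KO replicate 1 lowest.

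The androgen-binding protein genes came next. Scgb1b27, the alpha subunit, took 5.11% of the reads of WT replicate 1, 0.172% of WT replicate 2, 0.00122% of KO replicate 1 and 0.0353% of KO replicate 2. Scgb2b27 took 4.32%, 0.198%, 0.000840% and 0.0241% in the same order of libraries. Scgb2b26 took 1.55%, 0.0273%, 0.000404% and 0.0111%. Among 26 secretoglobin genes in the table, these 3 carried 99.5% of the family's reads in WT replicate 1. Of the other 23, 8 had more than 100 reads there, led by Scgb2b2 with 4459 and the pseudogene Scgb1b26-ps with 2571, and 5 had none; the airway secretoglobin Scgb1a1 had 1 read. The 22 genes of the Scgb1b and Scgb2b subfamilies span 31290520 to 34100837 of chromosome 7. Expression was thus concentrated in 3 genes near 1 end of a long cluster, with Scgb1b26-ps between Scgb2b26 and Scgb2b27.

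Car6 encodes the carbonic anhydrase secreted into saliva, and took 4.19% of WT replicate 1, 0.177% of WT replicate 2, 0.000775% of KO replicate 1 and 0.0186% of KO replicate 2. None of the other 15 carbonic anhydrase genes came near it: Car12 was next with 2928 reads in WT replicate 1 against 676837 for Car6. Prol1, salivary mucin 10, took 3.26%, 0.0469%, 0.000737% and 0.0348% in that order. Smr3a, a submaxillary gland androgen-regulated gene also on chromosome 5, went the other way. It had 0 reads in WT replicate 1 (a count of 0 allows up to 3 reads) and 61730 in WT replicate 2. Pip, an aspartyl protease-like secreted glycoprotein, took 1.08%, 0.0748%, 0.000218% and 0.00841%. Crisp3 was the least abundant, at 0.140%, 0.00763%, 4.49e-05% (7 reads) and 0.00106%, while the related Crisp1 had 191 reads in WT replicate 1 and 1864 in WT replicate 2.

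**Figure D1:**
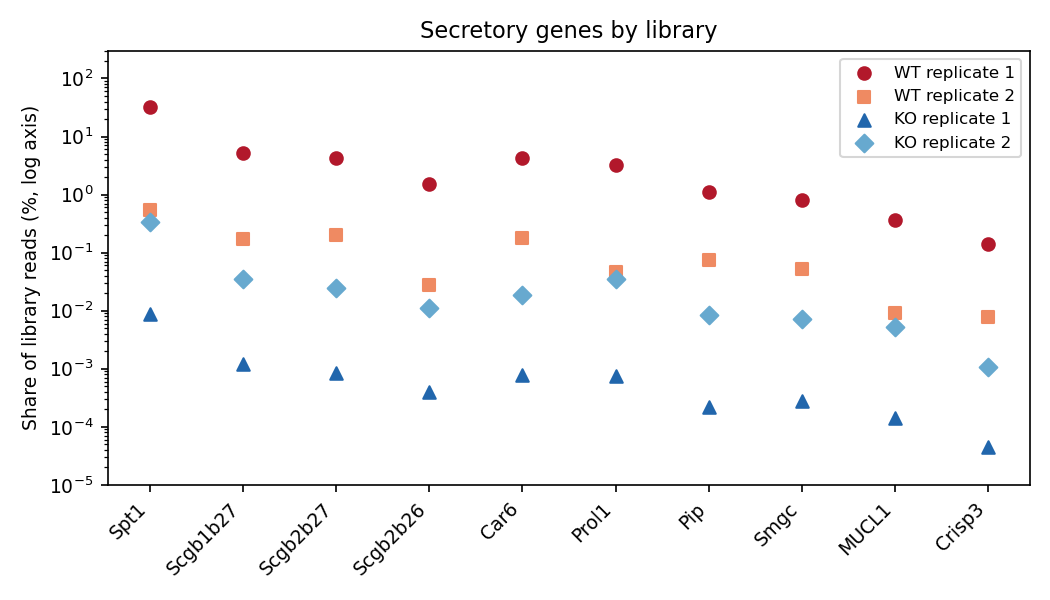
Share of each library's reads taken by each of the 10 genes (percent, log axis); each point is 1 library, with no replicate error. For all 10 genes WT replicate 1 is highest, from 0.140% (Crisp3) to 32.0% (Spt1), followed by WT replicate 2, KO replicate 2 and KO replicate 1.

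For all 10 genes the order of libraries by share was WT replicate 1, WT replicate 2, KO replicate 2 and KO replicate 1, so the groups did not overlap. By the same measure, both KO libraries lay below both WT libraries in 15.0% of all 20695 genes tested (33.3% by TMM-scaled CPM), and the choice of genes on a WT library favours that order. The drop from WT replicate 1 to WT replicate 2 was not even across the genes. It was largest for Prol1 (69.5-fold), Spt1 (58.8-fold), Scgb2b26 (56.9-fold) and MUCL1 (39.8-fold). For Scgb1b27, Car6 and Scgb2b27 it was 29.8-, 23.7- and 21.8-fold, and for Crisp3, Smgc and Pip 18.4-, 15.5- and 14.5-fold. The counting intervals of Prol1 (68.0 to 71.0) and Pip (14.2 to 14.8) lay far apart, but with 1 library on each side they say nothing of the spread between animals.

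Read share favours long transcripts, so the genes were also ranked per length, as CPM per kb of annotated exon. On that scale Spt1 led in WT replicate 1 at 306100, followed by Scgb1b27 at 50820. Prol1, Scgb2b27 and Scgb2b26 were close together at 28020, 27520 and 26770, then Car6 at 23090. Pip and MUCL1 stood at 4542 and 4496, Smgc at 2337 and Crisp3 at 990. With 1 library there is no spread to order such close neighbours. In WT replicate 2, on the same scale, Spt1 (5208) and Scgb1b27 (1708) again led, and Prol1 (403) fell behind Scgb2b27 (1263), Car6 (975) and Scgb2b26 (471). The length listed in the deposited table is the whole gene with its introns, so reads from introns may be included.

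Smgc needs its own account, because it lies at the start of Muc19 on the same strand (Muc19 spans 91838326 to 91936388 of chromosome 15), inside its span except for its first bases. Smgc had 128656 reads in WT replicate 1, 9190 in WT replicate 2, 43 in KO replicate 1 and 1431 in KO replicate 2, or 0.797%, 0.0514%, 0.000276% and 0.00713% of each library. Muc19 was listed with 154890, 200844, 78 and 1636 reads. If reads on the shared stretch were counted for both genes, the rest of Muc19 held 26234 reads in WT replicate 1 and 191654 in WT replicate 2, or 0.163% and 1.07%. Smgc reads thus equalled 83.1% of the Muc19 reads in WT replicate 1 but 4.58% in WT replicate 2, with 55.1% and 87.5% in KO replicates 1 and 2. With that way of counting, Smgc led the locus in WT replicate 1 and the rest of Muc19 led it in WT replicate 2.

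**Figure D2:**
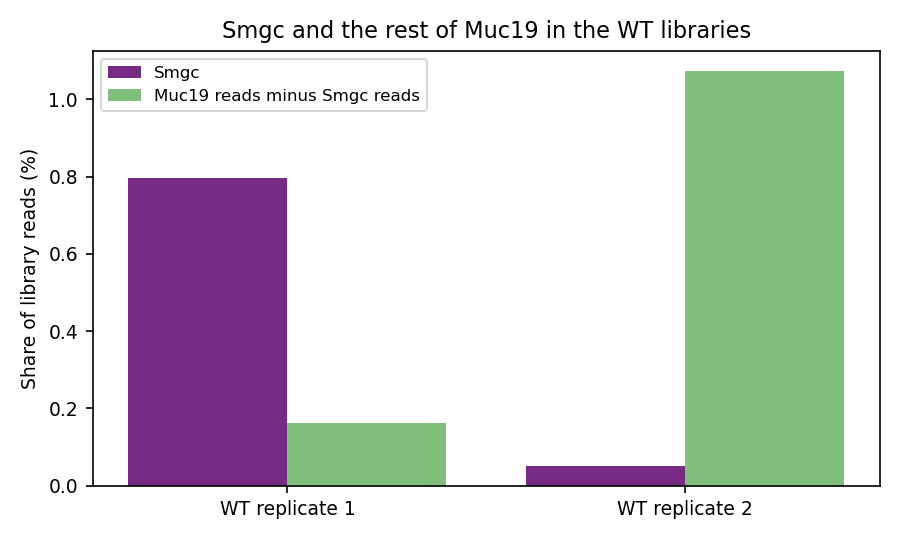
Bars give the share of library reads (percent) on Smgc and on the rest of Muc19, taken as Muc19 reads minus Smgc reads, in the 2 WT libraries; there is 1 library per bar. Smgc is the larger in WT replicate 1 (0.797% against 0.163%) and the rest of Muc19 in WT replicate 2 (0.0514% against 1.07%).

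Which gland these transcripts match was read from lists of gland genes that hold none of the 10. The submandibular list (Klk1 and other glandular kallikreins, Egf and others, 19 genes) summed to 23850 CPM in WT replicate 1 and 5457 CPM in WT replicate 2. Of its 19 genes, 17 were higher in WT replicate 1, such as Klk1b26 (3299 and 84.5 CPM), Klk1 (13420 and 1391 CPM) and the growth factor gene Egf (1148 and 186 CPM). The 2 lower ones were Smr3a (0 and 3453 CPM) and Smr2. Smr3a thus gave most of the list's 5457 CPM in WT replicate 2. The sublingual list (Muc19, Dcpp1, Dcpp2 and Dcpp3) summed to 27640 and 117000 CPM. Dcpp1, Dcpp2 and Dcpp3 were lower in WT replicate 1 with either denominator; Dcpp2 stood at 9646 and 57640 CPM. Muc19, whose reads may include those of Smgc, turned with the denominator: it was lower in WT replicate 1 by CPM of the library total (9596 and 11240) and higher by CPM of the reads outside the 10 genes (20340 and 11390). That denominator was added for the lists after the values were seen, and it turned no gene of the submandibular, parotid or duct lists. Of other lists, it turned 4 of 10 acinar, 3 of 9 epithelial, 5 of 7 myoepithelial and basal and 14 of 26 secretory pathway genes. Parotid genes were scarce in WT replicate 1: Amy1, amylase, had 7.87 CPM against 4283 in WT replicate 2, Dnase1 had 6.38 against 1268, and Bpifa2 had 619 against 18860. The parotid list as a whole summed to 634 and 24440 CPM.

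Lists of other glands had few reads. Pancreas genes had 34 reads over 8 genes in WT replicate 1, 26 of them on the elastase gene Cela2a; the other libraries had 133 (WT replicate 2), 150 and 212 (KO). Milk protein genes had 3 reads in WT replicate 1 over 7 genes, and airway and nasal gland genes 3 reads over 7. Of 12 lacrimal gland genes (the exocrine-gland secreted peptides and Lcn11) 3 were matched by symbol, with 1 read in all, so that list barely tests a lacrimal source, even though the name of Prol1 refers to the lacrimal gland. Acinar cell genes summed to 2654 and 2123 CPM of the library total in the 2 WT libraries, and to 5627 and 2152 CPM of the reads outside the 10 genes. The water channel gene Aqp5 of acinar cells stood at 458 and 437 CPM on the first scale and 970 and 443 CPM on the second. Duct genes summed to 676 and 409 CPM of the library total, with all 9 higher in WT replicate 1. By these lists, WT replicate 1 combined high submandibular and sublingual levels with few parotid reads. WT replicate 2 combined high sublingual and parotid levels with fewer submandibular reads. Dcpp2 alone gave 57640 of the 117000 CPM of the sublingual list in WT replicate 2. The Dcpp genes are named for the parotid gland as well, so that sum does not tell sublingual from parotid reads. Whether such reads came from gland tissue taken with the node was not tested.

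**Figure D3:**
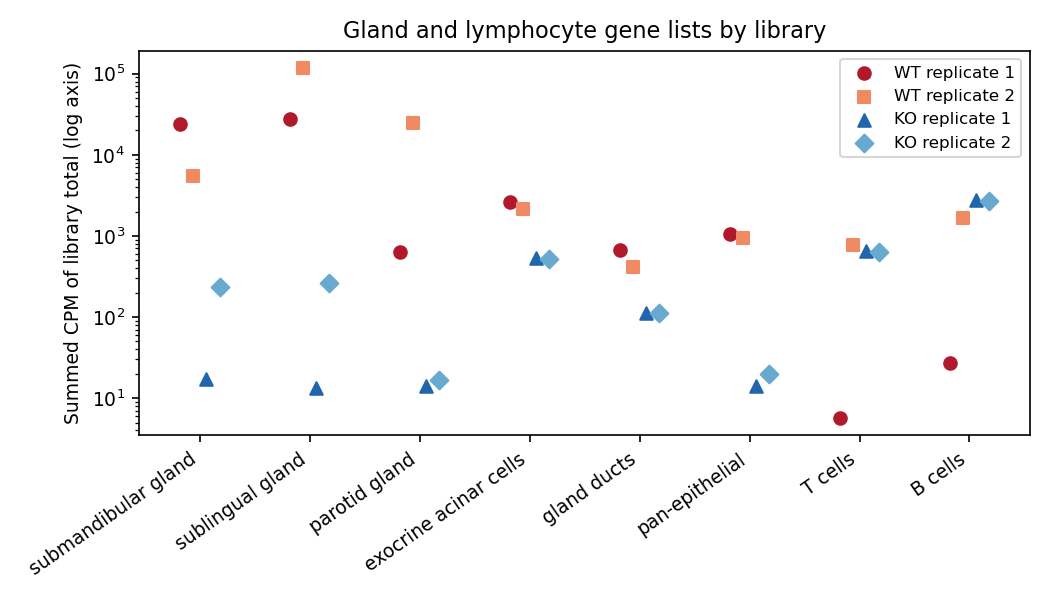
Summed level of each gene list per library (CPM of the library total, log axis); each point is 1 library. The submandibular list is highest in WT replicate 1 (23850 CPM), the sublingual and parotid lists in WT replicate 2 (117000 and 24440 CPM), and T cell and B cell lists are lowest in WT replicate 1.

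Genes with the pattern nearest to the 10 across the 4 libraries were sought among 8702 named protein-coding genes with at least 1000 reads. Likeness was the Euclidean distance between centred log2 CPM values and the median of the 10 genes, over the 4 libraries, where the 10 themselves lay between 0.206 (Scgb1b27) and 1.498 (Prol1) and the median ranked gene at 9.65. The nearest was Mup5, a major urinary protein gene, at 0.570, which had 6000 reads in WT replicate 1, 341 in the other WT library, and 2 and 68 in KO. The next 9 were all glandular kallikreins of chromosome 7: Klk1b11 (0.578), Klk1b26 (0.667), Klk1b22 (0.714), Klk1b9 (0.813), Klk1b21 (0.853), Klk1b24 (0.899), Klk1b4 (1.04), Klk1 (1.14) and Klk1b1 (1.15). These kallikreins are close copies of one another, so their reads may be split between them. The ranking is a description over 4 libraries that all genes share, with no test.

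The 10 genes are not a clean cut of the most read genes. Crisp3, the lowest, ranked 32 in WT replicate 1 with 22634 reads, and genes just below it included Gnb1l with 22136 and Wfdc12 with 22045. Above it were 22 other genes, among them Klk1 (216678 reads, rank 7), Dcpp2 (155703) and Muc19 (154890), but also Lars2 (128114), which had 49577 and 95287 reads in KO.

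In the KO libraries the proportions of the 10 genes were, as a set, closer to those of WT replicate 1 than to those of WT replicate 2. For KO replicate 1 they rest on as few as 7 reads (Crisp3). In KO replicate 2 each gene's reads were between 0.550% (Car6) and 1.82% (MUCL1) of its reads in WT replicate 1, a 3.31-fold range. Set against WT replicate 2 they ran from 11.8% (Car6) to 83.3% (Prol1), a 7.08-fold range. KO replicate 1 showed the same: 0.0179% (Car6) to 0.0380% (MUCL1) of the WT replicate 1 reads, a 2.13-fold range, against 0.254% (Pip) to 1.40% (Spt1) of the WT replicate 2 reads, a 5.50-fold range. Spt1 made up 60.6% of the reads on the 10 genes in WT replicate 1 and 65.2% and 69.8% in KO replicates 1 and 2, but 41.6% in WT replicate 2.

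**Figure D4:**
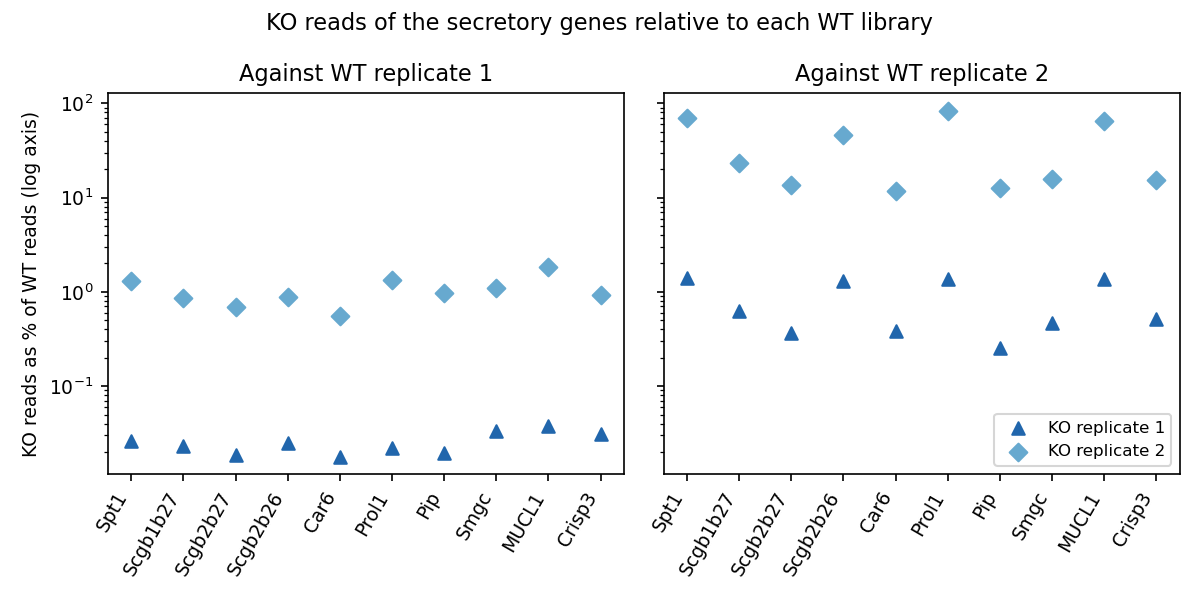
Reads of each gene in KO replicate 1 (triangles) and KO replicate 2 (diamonds) as a percent of its reads in WT replicate 1 (left) or WT replicate 2 (right), on a log axis; each point is 1 gene in 1 library. Points are more level on the left, 0.550 to 1.82% for KO replicate 2, than on the right, 11.8 to 83.3%.

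Gland genes outside the 10 were mixed in this respect. In KO replicate 2, the 4 sublingual genes and 10 of the 18 submandibular genes with reads in WT replicate 1 had between 0.550% and 1.82% of those reads, the range of the 10; the other 8 submandibular genes had more. Klk1 in KO replicate 2 had 1.19% of its WT replicate 1 reads and Klk1b26 had 0.971%. Dcpp1, Dcpp2 and Dcpp3, which were higher in WT replicate 2, had 1.28%, 1.18% and 1.28% of their WT replicate 1 reads in KO replicate 2, against 0.183%, 0.178% and 0.213% of their WT replicate 2 reads. The parotid list departed from it, with 1 of 5 genes (Bpifa2, 0.731%) inside the range. Amy1 had 106 and 148 reads in the KO libraries and 127 in WT replicate 1, beside 76553 in WT replicate 2, and Dnase1 had 86 and 115 in KO and 103 in WT replicate 1. Of the cell-type lists, 5 of 9 epithelial, 3 of 9 duct and 2 of 10 acinar genes lay inside the range. Inside it were the keratin gene Krt18 (0.637%) and Aqp5 (0.555%); above it were the epithelial adhesion gene Epcam (9.06%), the ion transporter gene Slc12a2 (4.90%) and the acinar regulator Bhlha15 (10.1%), and below it the tight junction gene Cldn3 (0.448%). Over all other genes with reads in WT replicate 1, 130 of 24925 lay inside it. These counts were chosen after the values were seen. The source of the gland reads in the KO libraries was not tested.

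The KO libraries differed from each other for every one of the 10. Shares in KO replicate 2 exceeded those in KO replicate 1 by 23.6-fold for Crisp3 (counting interval 11.2 to 59.3), 23.9-fold for Car6, 38.6-fold for both Spt1 and Pip, and 47.2-fold for Prol1 (39.3 to 57.3). The T cell and B cell lists, by contrast, summed to 656 and 630 CPM and to 2758 and 2663 CPM in KO replicates 1 and 2. In KO replicate 1 the least read of the 10, Crisp3, had 7 reads, above the 3 reads that a count of 0 allows.

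In the fit of KO against WT over all 4 libraries, all 10 genes were lower in KO by fitted value and 0 of 10 passed the threshold. Across the 20695 genes tested with edgeR, 3.22% passed at an adjusted p under 0.05, and 2.18% were lower in KO. This contrast includes the library that chose the genes, so nothing is read from any count of calls in it. Fitted log2 fold changes ran from −9.12 for Car6 (SE 3.70) to −7.40 for MUCL1 (SE 3.18), with −7.88 for Spt1 (SE 6.41). At an unadjusted p under 0.05 there was 1 of 10, Crisp3 (−8.35, SE 2.86), and by DESeq2's Wald test 10 of 10 passed. The calls also moved with the libraries: without WT replicate 2, which leaves only the library that chose the genes on the WT side, 9 of 10 passed, all but Spt1. Without KO replicate 2 the fold changes were −12.7 to −11.6 and 0 of 10 passed. The authors' deposited table of comparisons holds 5511 genes and 0 of these 10. In the authors' deposited table of log2 values, centred on each gene's median, the 10 lay between 6.66 and 7.71 in WT replicate 1, 0.28 and 1.69 in WT replicate 2, −6.91 and −5.49 in KO replicate 1, and −1.69 and −0.28 in KO replicate 2.

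The genes were chosen by their share in WT replicate 1, but with earlier results of these data known. Whether the other libraries played a part in that choice cannot be told, so the calls that follow are a description. KO against WT replicate 2 holds 1 WT library that is assumed to vary like the KO libraries. There 7 of the 10 fell: Crisp3, Smgc, Car6, Pip, Scgb2b27, Scgb1b27 and Scgb2b26. Of all 21844 genes tested, 43.8% were called in this comparison, 22.8% lower and 20.9% higher, so the call alone does not set the genes apart. The log2 fold change was −3.83 for Crisp3 (SE 0.59, edgeR adjusted p = 0.00021), −3.91 for Smgc (SE 0.89, adjusted p = 0.0036), −4.33 for Car6 (SE 1.0, adjusted p = 0.0040) and −4.24 for Pip (SE 1.0, adjusted p = 0.0046). Scgb2b27 and Scgb1b27 fell by 4.12 and 3.36 on the log2 scale (SE 1.04 and 1.03), and Scgb2b26 by 2.36 (SE 0.89, edgeR adjusted p = 0.049). Spt1 (−1.79, SE 1.10), MUCL1 (−1.83, SE 0.82) and Prol1 (−1.53, SE 1.09) did not pass (edgeR adjusted p = 0.219, 0.095 and 0.290). These 3 are the genes for which KO replicate 2 came closest to WT replicate 2, at 69.5%, 65.5% and 83.3% of its reads. The calls depend on the tool: with DESeq2's Wald test 0 of the 10 passed, with adjusted p for the 7 from 0.170 to 0.615.

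**Figure D5:**
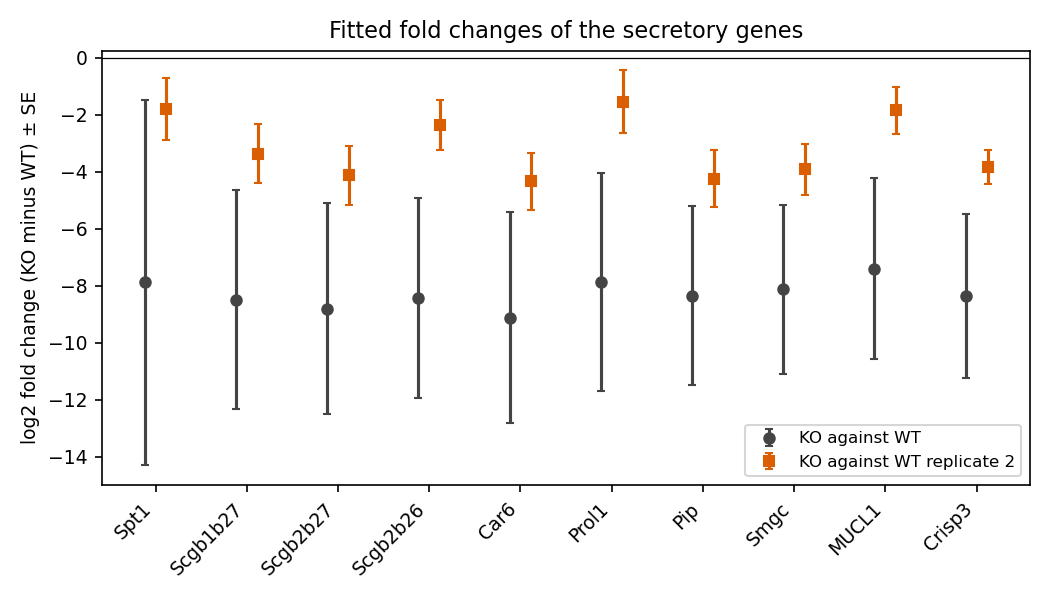
Fitted log2 fold changes (KO minus WT) with their standard errors for the 10 genes, from edgeR with all 4 libraries (circles) and against WT replicate 2 alone (squares). Values lie between −9.12 and −7.40 with both WT libraries and between −4.33 and −1.53 against WT replicate 2.

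Gland genes outside the 10 were also lower against WT replicate 2. The filter on low counts left 18 of 19 submandibular, 5 of 7 parotid and 4 of 4 sublingual genes, and edgeR called each of these lower. The parotid genes Prb1 and Prpmp5, at 0 in both KO libraries, and Smr2, with 58 reads in WT replicate 2 and 2 and 3 in KO, passed the filter mainly through WT replicate 2, where they were high, so a call there could only be lower and the counts support nothing. The lists' median log2 fold changes were −3.29, −11.1 (−7.94 with the 2 parotid genes at 0 in KO set to the bound of 3 reads over the group) and −10.2, beside a median of 0.0045 over all genes tested. The 10 secretory genes had a median of −3.60, near that of the submandibular list. The myoepithelial and basal list (−3.28) and the duct list (−4.065) were near it as well, so this median does not single out a gland. With all 4 libraries 0 genes of the 3 salivary gland lists passed. Their medians were then −7.71 over 17 submandibular, −8.37 over 3 parotid and −9.71 over 4 sublingual genes. Among the cell-type lists with all 4 libraries, 4 of 7 myoepithelial and basal and 4 of 9 epithelial genes fell. So did 4 of 10 acinar, 1 of 9 duct and 1 of 26 secretory pathway genes. Several of the called genes (Krt14, Cnn1, Chrm1, Chrm3 and Spdef) never exceeded 11 reads in a KO library. Those genes passed the filter mainly through the WT libraries, so a call could only be lower. The counts for these lists are therefore a description, with no enrichment read from them. No T cell or B cell gene of the lists passed in either direction in that fit over all 4 libraries. The median log2 fold changes of the T cell and B cell lists were 0.66 and 1.47 there, and −0.31 and 0.84 against WT replicate 2.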

How the data were processed

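RNA of the 4 libraries, without most ribosomal RNA, was read by Ion Torrent sequencing. Per the file headers, the authors deposited raw counts of reads for each gene. Mm10 and DESeq2 1.62 stand in the submitters' processing notes; the aligner is not given in the sources used here, nor is the counter. The authors deposited a table of log2 values centred per gene, and a table of comparisons with an unadjusted p-value per gene; 8 other columns of coverage per sample were not used.

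Those counts went into edgeR 4.0.16 under R 4.3.3 (quasi-likelihood test, TMM scaling, filterByExpr at its defaults of 10 reads and 15 in total, Benjamini-Hochberg over all genes tested), and also into DESeq2 1.42.0. CPM are of the library total. Exon lengths and 50-base sharing used GENCODE M21, and promoters RefSeq GRCm38.p6. Of 144 gene list entries, 135 matched. Totals were 15604247 to 20067004 reads, so a count of 0 allows up to 0.192 CPM. Named genes were the 10, list and family members with most reads in WT replicate 1, the nearest patterns, Becn1 and Xist; others were chosen after their values were seen, and some are not reported here. The genes and lists were chosen with earlier results of these data known. Alternatives were other scalings, filters, DESeq2, a replicate block, and each library left out.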

Additional observations from a re-analysis of the deposited data

How the results depend on the processing

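With edgeR on all 4 libraries 216 genes were higher and 451 lower in KO. The counts were 0 and 0 with library totals alone, 542 and 1188 with no filter, 1325 and 2430 with DESeq2, and 0 to 6887 and 0 to 6922 with each library left out (6887 and 6922 without WT replicate 2, 4573 and 4988 without WT replicate 1, 0 and 0 without either KO library). Against WT replicate 2, 4573 were higher and 4988 lower, and 2760 and 2790 with DESeq2. At the counts of 0, genes at an unadjusted p under 0.05 numbered 1472 higher and 1505 lower with library totals. With KO replicate 1 left out they were 732 and 1318, and with KO replicate 2 left out 743 and 1342. With the replicate block they were 1866 and 2734.

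Replicate numbers are shared between the groups, but only as numbers: the deviations correlated at −0.108 across genes. The replicate block gave 0 higher and 0 lower. The crossed pairing, chosen after seeing the data, gave 202 and 643.

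All 10 genes kept a negative fold change under every alternative run. With all 4 libraries, 4 of them passed under the crossed pairing and 9 without WT replicate 2, where the WT side is only the library that chose them, so nothing is read from it. Against WT replicate 2 with no filter, the log2 fold changes of Spt1, MUCL1 and Prol1 hardly moved (−1.77, −1.81 and −1.51). Their calls did change with the filter, so nothing is read from those calls.

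The 10 genes' share with reads per kb of listed length was 48.0%, 1.55%, 0.0105% and 0.382% in WT replicates 1 and 2 and KO replicates 1 and 2, and 53.3% in WT replicate 1 without mitochondrial, haemoglobin and ribosomal RNA genes. The ratio of WT replicate 1 to WT replicate 2, 40.4, was 40.6 without those genes, 84.5 per read outside the 10 genes and 92.3 with TMM-scaled sizes.

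List medians with library totals were 1.84 for pancreas, −2.87 for myoepithelial, −6.93 for epithelial and 0.37 for secretory pathway genes (−0.37 with TMM), and 0.29 for pancreas with no filter. With each library left out in turn, the medians ran from −11.44 to −3.29 for submandibular, −11.12 to −1.52 for parotid, −13.13 to −8.76 for sublingual, 0.56 to 1.21 for pancreas, −6.91 to −4.07 for duct, −9.79 to −6.21 for epithelial, −0.31 to 6.13 for T cell, 0.84 to 7.09 for B cell and −0.59 to 0.0112 for secretory pathway genes. Without WT replicate 1, T cell genes (0.66 with all libraries, −0.31 without it) and secretory pathway genes (0.0112 without it) changed sign. Library totals moved the median of all genes to 0.60. The cause of these shifts was not tested.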
